A study of Mus musculus with 20 samples.

Results

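Secreted Wnt antagonists, non-canonical Wnt ligands and the Dishevelled-related gene Dixdc1 were described in mouse hearts with and without OGFOD1 and with and without isoproterenol. The 10 genes were Sfrp1, Sfrp2, Sfrp4, Sfrp5, Frzb, Dkk3, Wnt5a, Wnt5b, Wnt11 and Dixdc1, of 55335 genes in the count table. They were chosen by name, with earlier results of these data known. Sfrp2, Sfrp5 and Dixdc1 in particular were chosen for values in these libraries, Sfrp2 and Sfrp5 for their difference with isoproterenol and Dixdc1 for its lower level in the knockout, so those differences are described here without a test. All 10 genes passed the filter on low counts that left 14878 genes for testing.

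Hearts came from C57BL/6N mice aged 3 to 5 months, either wild-type (WT) or lacking OGFOD1 (KO). Mice carried an osmotic minipump for 2 weeks that delivered vehicle (PBS and sodium ascorbate) or isoproterenol in that vehicle, and each of the 4 groups had 5 libraries. Isoproterenol is an agonist of beta-adrenergic receptors, and its infusion is a common model of cardiac hypertrophy. OGFOD1 is an oxygenase that hydroxylates a prolyl residue of a ribosomal protein. How the KO allele was made, the sex of the mice and whether every library came from a different mouse were not stated in the sources used here, so p-values measure the spread between libraries, which may be technical in part. RNA came from powdered whole heart, so that fewer cells of a type and less RNA per cell cannot be told apart in any of the values below.

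Wnt proteins are secreted lipid-modified ligands that bind Frizzled receptors. In the canonical branch, Frizzled and the LRP5 and LRP6 co-receptors act through Dishevelled to stop the destruction complex from degrading beta-catenin, which then joins TCF/LEF factors on target genes. Wnt5a, Wnt5b and Wnt11 are known mainly for non-canonical signalling through planar polarity and calcium. Secreted frizzled-related proteins (the Sfrp family and Frzb, also called Sfrp3) carry a Frizzled-like cysteine-rich domain and bind Wnt ligands outside the cell. In the heart, Wnt genes are studied in development and in fibrosis after injury.

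Promoter sequence is shown for Sfrp2 and Sfrp5, the antagonist genes that differed in opposite directions with isoproterenol. Each run is the 250 bases before the RefSeq transcription start on GRCm38.p6, in the gene's direction, and capitals mark the letters TGACG, the core of the cAMP response element, which is bound by factors that act downstream of beta-adrenergic receptors. The Sfrp2 window is chr3:83766071-83766320 on the plus strand, and the Sfrp5 window is chr19:42202253-42202502 on the minus strand.
Sfrp2: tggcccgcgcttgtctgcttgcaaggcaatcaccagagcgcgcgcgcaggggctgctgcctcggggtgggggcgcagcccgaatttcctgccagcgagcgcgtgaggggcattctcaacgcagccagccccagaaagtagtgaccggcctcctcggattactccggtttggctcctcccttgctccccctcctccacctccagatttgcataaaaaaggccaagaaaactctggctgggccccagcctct
Sfrp5: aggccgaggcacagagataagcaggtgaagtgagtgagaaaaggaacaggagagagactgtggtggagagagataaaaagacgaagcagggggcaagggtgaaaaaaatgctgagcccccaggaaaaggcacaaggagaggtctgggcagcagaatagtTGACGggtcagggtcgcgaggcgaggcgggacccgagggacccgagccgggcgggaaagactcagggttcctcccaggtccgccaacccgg
Searched on both strands were TGACG, the full element TGACGTCA that contains it, and the TCF/LEF core TCAAAG. The TATA box letters TATAAA were searched on the gene's strand alone. The Sfrp2 window held none of them. The Sfrp5 window held TGACG once, starting 91 bases before the transcription start, and none of the others. Of 32851 RefSeq promoter windows of the same length, 17.8% held TGACG, 1.55% held TGACGTCA, 13.8% held TCAAAG and 7.59% held TATAAA. A match is a string of letters and not a shown binding site, and no match says only that the letters are missing from this window.

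Total counts ranged from 14609808 to 43671055 per library, of which 5916852 to 17121499 lay outside the mitochondrial genome. Ogfod1 separated the genotypes, with 16.9 to 21.8 CPM in WT and 2.39 to 4.13 CPM in KO libraries, where CPM are counts divided by the TMM-scaled size of their library. A pair of libraries stood apart. WT vehicle replicate 2 had 9505 CPM of Gm42418, a gene resembling ribosomal RNA, which reached 82.1 to 198 CPM in the other 19 libraries. KO isoproterenol replicate 5 had a summed level of 2653 CPM for 6 smooth muscle and large artery markers, against 237 to 289 CPM in the other 4 libraries of its group, and within these Eln (elastin) stood at 1961 CPM against 32.8 to 43.8 CPM. Results that rest on these libraries are given with and without them.

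As CPM per kilobase of annotated exon (RPKM), Dkk3 had the highest level of the 10 genes in each group and Sfrp4 the lowest. In WT vehicle hearts the mean levels were 12.0 RPKM for Dkk3, 2.61 for Sfrp5, 2.43 for Sfrp1, 1.35 for Frzb, 0.860 for Dixdc1, 0.728 for Sfrp2, 0.650 for Wnt11, 0.523 for Wnt5a, 0.272 for Wnt5b and 0.0881 for Sfrp4. The library ranges of Sfrp5 and Sfrp1 overlapped, as did those of each pair of neighbours in this order from Dixdc1 down to Sfrp4. Dkk3 stood apart from the next gene, as did Sfrp1 from Frzb and Frzb from Dixdc1. Dixdc1 has many transcripts, and by its longest transcript alone its mean was 1.33 RPKM, close to the 1.39 of Frzb on the same scale. Under isoproterenol the order of the antagonists differed. Sfrp5 was the fifth gene in both genotypes at 1.03 RPKM in WT and 0.926 in KO, behind Sfrp1 (3.74 and 4.88), Frzb (2.04 and 2.44) and Sfrp2 (1.38 and 3.74). The KO mean of Sfrp2 rested on KO isoproterenol replicate 5, and without that library it was 2.12 RPKM, below the 2.30 of Frzb. Sfrp2 shared 347 exonic bases with the opposite-strand gene Gm26771, Wnt5a 358 with Gm2670 and Wnt11 364 with Gm8398. These opposite-strand genes had at most 3 counts per library, and whether reads over the shared bases were kept was not stated in the sources used here, so the levels of these 3 genes per length may be too low. Fbxl14, on the strand opposite Wnt5b, shared 0 exonic bases with it.

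**Figure D1:**
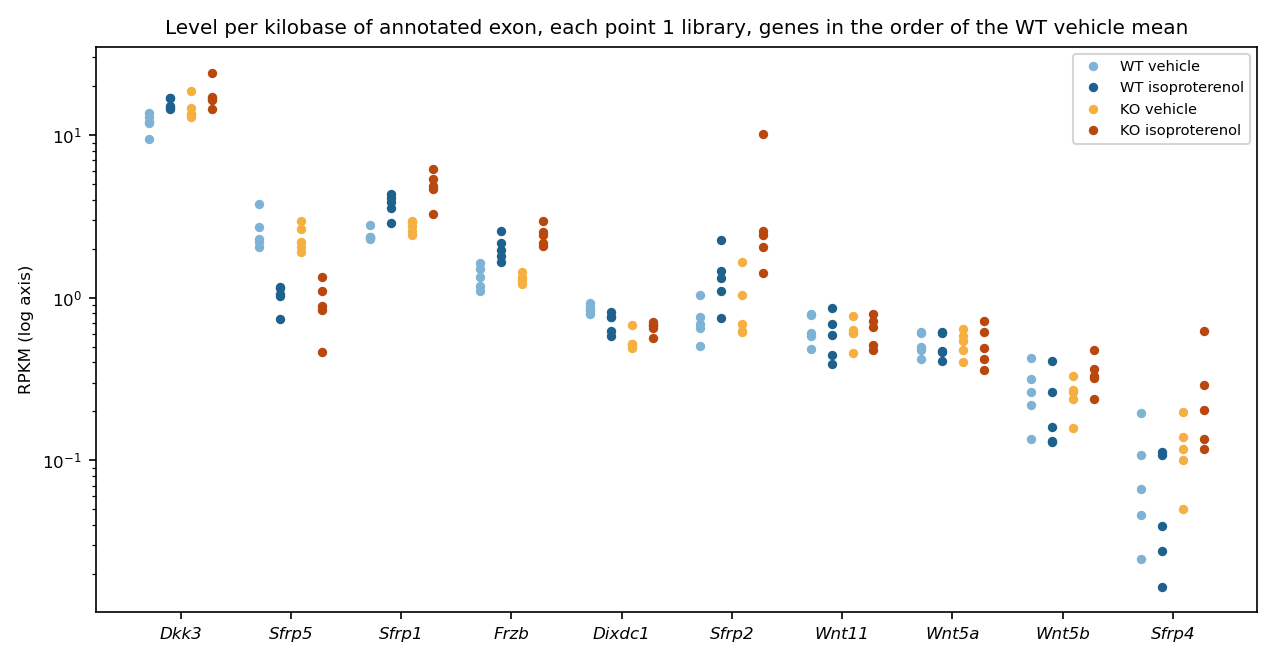
RPKM of the 10 genes on a log axis, each point 1 library, coloured by group, with genes ordered by their mean in WT vehicle hearts. Dkk3 lies highest in all groups (12.0 to 17.8 RPKM on average) and Wnt5b and Sfrp4 lie lowest in all of them.

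The secreted antagonists Sfrp1 and Frzb rose with isoproterenol in both genotypes. Of the 8 genes whose isoproterenol values had not been used to choose them, these 2 were higher and 0 lower in WT, where 4.64% of all tested genes were higher and 4.12% lower (FDR under 0.05). FDR stands throughout for the p-value of edgeR's quasi-likelihood test, adjusted over all tested genes by the Benjamini-Hochberg method. The same count was found in KO, where 4.75% of tested genes were higher and 4.29% lower. All 10 genes were named with such results known, so these counts are descriptions. In KO against WT, 0 of the 9 genes other than Dixdc1 passed under vehicle (0.0605% of tested genes higher, 0.0672% lower), under isoproterenol (0.0538% and 0.128%) or averaged over both treatments (0.383% and 0.464%). In the same order, 1, 4 and 4 of the 9 had an unadjusted p under 0.05. The share of all tested genes at that unadjusted threshold was not computed, so these counts are no result about the 9 genes. DESeq2 called 0, 0 and 1 of the 9, beside 61, 128 and 226 of the 14878 tested genes. No gene of the 14878 passed for a difference between the isoproterenol responses of the genotypes (0% higher and 0% lower), with 1142 at an unadjusted p under 0.05, 5 called by DESeq2 and 0 by limma-voom. Of the 10 genes, 2 had an unadjusted p under 0.05 for that difference, and DESeq2 called 0.

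**Figure D2:**
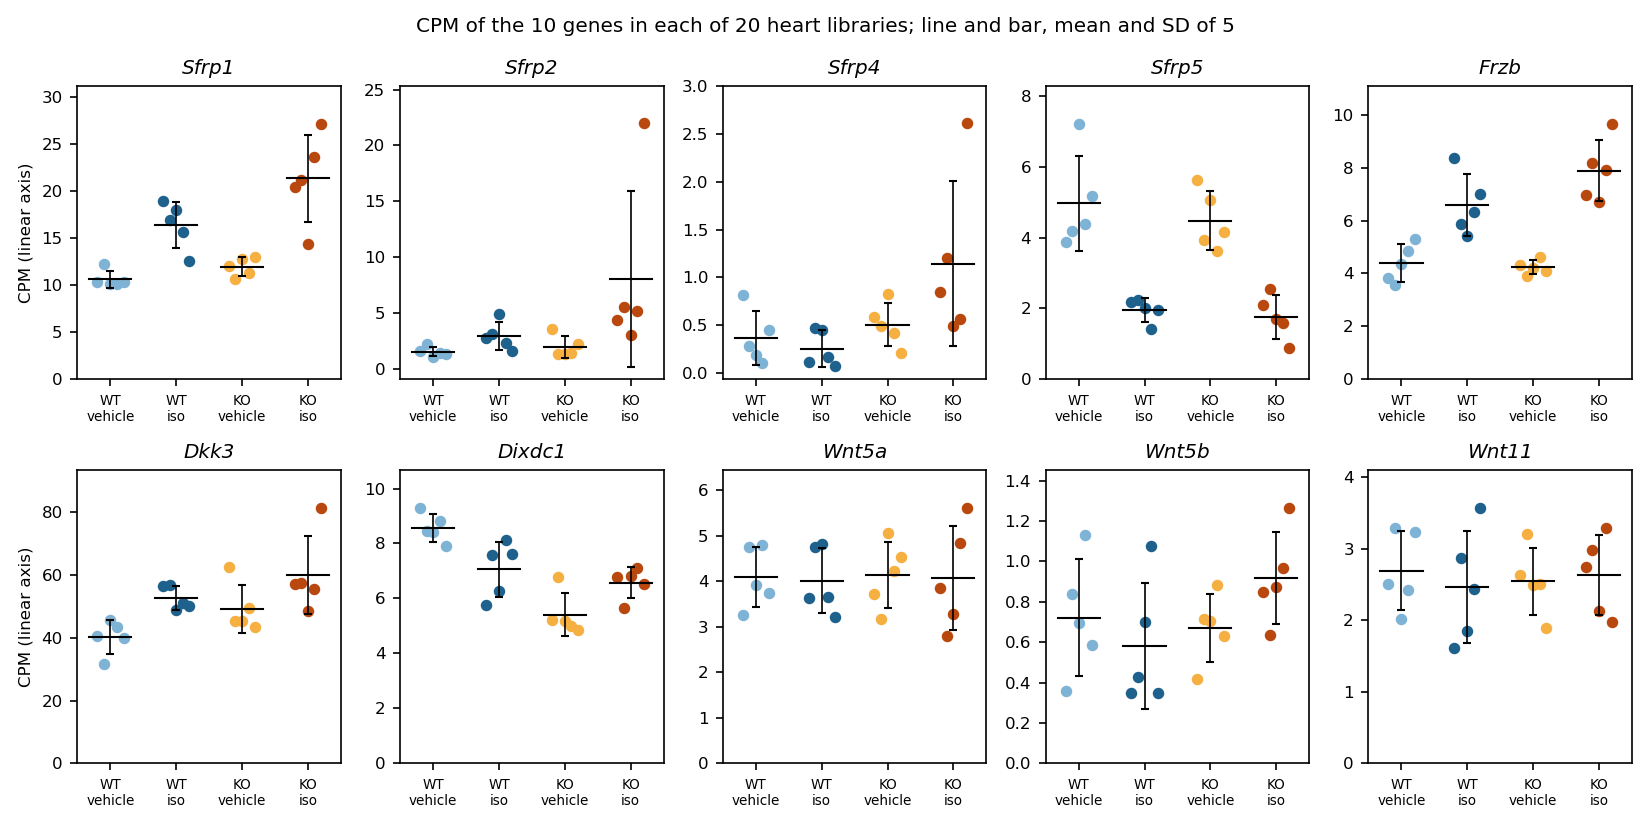
CPM of each of the 10 genes in the 20 libraries on linear axes that start at 0 or just below, with points for libraries, a line for the group mean and a bar for the SD of 5. Sfrp1 and Frzb lie higher and Sfrp5 lower with isoproterenol, and KO isoproterenol replicate 5 is the high Sfrp2 point at 22.0 CPM.

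Sfrp1 is a broadly expressed Wnt-binding antagonist that has been studied in cardiac fibrosis. Its CPM were 10.3, 12.2, 10.1, 10.1 and 10.3 in the WT vehicle libraries and 18.9, 16.9, 18.0, 15.6 and 12.5 in the WT isoproterenol libraries. In KO they were 12.0, 10.6, 12.8, 11.3 and 13.0 under vehicle, and 20.4, 21.1, 14.4, 23.6 and 27.1 under isoproterenol. In both genotypes every isoproterenol library lay above every vehicle library. On average Sfrp1 had 10.6 ± 0.908 and 16.4 ± 2.48 CPM in WT, and 11.9 ± 1.01 and 21.3 ± 4.66 CPM in KO (SD over 5 libraries). With isoproterenol it rose by a log2 fold change of 0.63 in WT (SE 0.126, FDR = 0.00196) and 0.84 in KO (SE 0.122, FDR = 6.91e-05). Both calls held in all 11 alternatives and without each library in turn. The difference between the responses was 0.21 (95% interval −0.16 to 0.57, FDR = 0.790), and 0.10 without KO isoproterenol replicate 5. Under isoproterenol Sfrp1 had a log2 fold change of 0.38 in KO against WT (SE 0.121, FDR = 0.189), which passed in 1 of 11 alternatives, that with no filter on low counts (FDR = 0.00583), and without KO isoproterenol replicate 3 (0.49, FDR = 0.0246). Without KO isoproterenol replicate 5 the value was 0.28 (FDR = 0.340).

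Frzb was first known from cartilage, where it limits Wnt signalling. Its WT vehicle libraries measured 3.83, 3.56, 4.37, 4.84 and 5.31 CPM and its WT isoproterenol libraries 8.37, 5.86, 5.40, 6.33 and 6.99 CPM. KO vehicle libraries measured 4.33, 3.92, 4.22, 4.64 and 4.10 CPM and KO isoproterenol libraries 6.98, 8.19, 6.71, 7.89 and 9.64 CPM. As for Sfrp1, the 2 treatments did not overlap in either genotype, although the highest WT vehicle library (5.31 CPM) lay just below the lowest isoproterenol library (5.40 CPM). The log2 fold change was 0.57 in WT (SE 0.128, FDR = 0.00462) and 0.90 in KO (SE 0.126, FDR = 2.25e-05), and both calls held in every alternative and without each library in turn. The difference between the responses was 0.33 with an interval from −0.04 to 0.70 (FDR = 0.671). Averaged over treatments, the knockout value of Frzb was 0.11 (SE 0.0900, FDR = 0.686), and 0.06 without KO isoproterenol replicate 5.

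Sfrp2, which binds Wnt ligands and has also been described as a modulator of procollagen processing by tolloid proteases, was higher on average with isoproterenol, most of all in KO. The CPM were 1.63, 2.24, 1.08, 1.49 and 1.39 in WT vehicle and 2.83, 3.13, 4.90, 2.37 and 1.61 in WT isoproterenol libraries. They were 3.58, 1.32, 1.34, 1.48 and 2.24 in KO vehicle and 4.44, 5.52, 3.05, 5.23 and 22.0 in KO isoproterenol libraries. Treatments overlapped in both genotypes, through 1 low isoproterenol library in WT (1.61) and 1 high vehicle library in KO (3.58). Counts were 21 to 101 per library outside KO isoproterenol replicate 5, which had 523. The log2 fold change, given as a description, was 0.96 in WT (SE 0.565) and 2.01 in KO (SE 0.494). Without KO isoproterenol replicate 5 the KO value was 1.16 (SE 0.300), near that of WT. The difference between the responses was 1.05 with all libraries (interval −0.55 to 2.66, FDR = 0.745) and 0.20 without that library (FDR = 0.921). It is made of the isoproterenol values for which Sfrp2 was chosen, so it is no independent test. In KO against WT under isoproterenol the log2 fold change was 1.46 (SE 0.480, FDR = 0.233), and 0.61 (FDR = 0.448) without that library. Under vehicle it was 0.41 (SE 0.581, FDR = 0.923). Both genotype values use the libraries whose isoproterenol difference was known when Sfrp2 was chosen. They are no independent test either.

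Fibroblast markers also differed between the treatments, and their part in the values of Sfrp2 was not tested. The summed level of 8 fibroblast markers (Pdgfra, Tcf21, Dcn, Lum, Dpt, Pi16, Gsn and Mfap5), all of them detected in every library, was 923 to 1083 CPM in WT vehicle, 1145 to 1236 in WT isoproterenol, 1040 to 1215 in KO vehicle and 1269 to 1370 in KO isoproterenol libraries. Gsn and Dcn made up most of these sums, with means of 734 and 385 CPM in KO isoproterenol libraries. The sums therefore say little about the other fibroblast markers. With isoproterenol 4 of the 8 were higher and 0 lower in each genotype. Of all tested genes 4.64% were higher and 4.12% lower in WT, and 4.75% and 4.29% in KO. The summed level of 7 markers of activated fibroblasts (Postn, Cilp, Thbs4, Fap, Comp, Cthrc1 and Acta2) was 152 to 200, 231 to 313, 174 to 237 and 245 to 1111 CPM in the same order. Acta2, a smooth muscle actin gene, had the highest mean of the 7 in each group. It averaged 104 CPM in WT vehicle and 234.5 ± 232 CPM in KO isoproterenol libraries, against 39.1 and 165 ± 125 CPM for Postn (SD). Of the 6 activated fibroblast markers tested, 2 were higher in WT and 4 in KO, and 0 were lower, beside the same shares of all tested genes. KO isoproterenol replicate 5 held the 1111, against 245 to 334 CPM in the other 4 libraries. Its fibroblast marker sum (1348 CPM), made up mostly of Gsn and Dcn, lay within the range of the others. The spread in this group differed between markers, with 30.9 ± 21.4 CPM for Mfap5 and 48.1 ± 2.61 CPM for Pdgfra (SD). The ventricular myocyte sum of KO isoproterenol replicate 5 was 17186 CPM against 20833 to 22923 CPM. The same marker lists apply to Sfrp1 and Frzb, whose part in those rises was not tested either, and both rises were called without this library (Sfrp1 in KO 0.74, FDR = 9.01e-05).

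**Figure D3:**
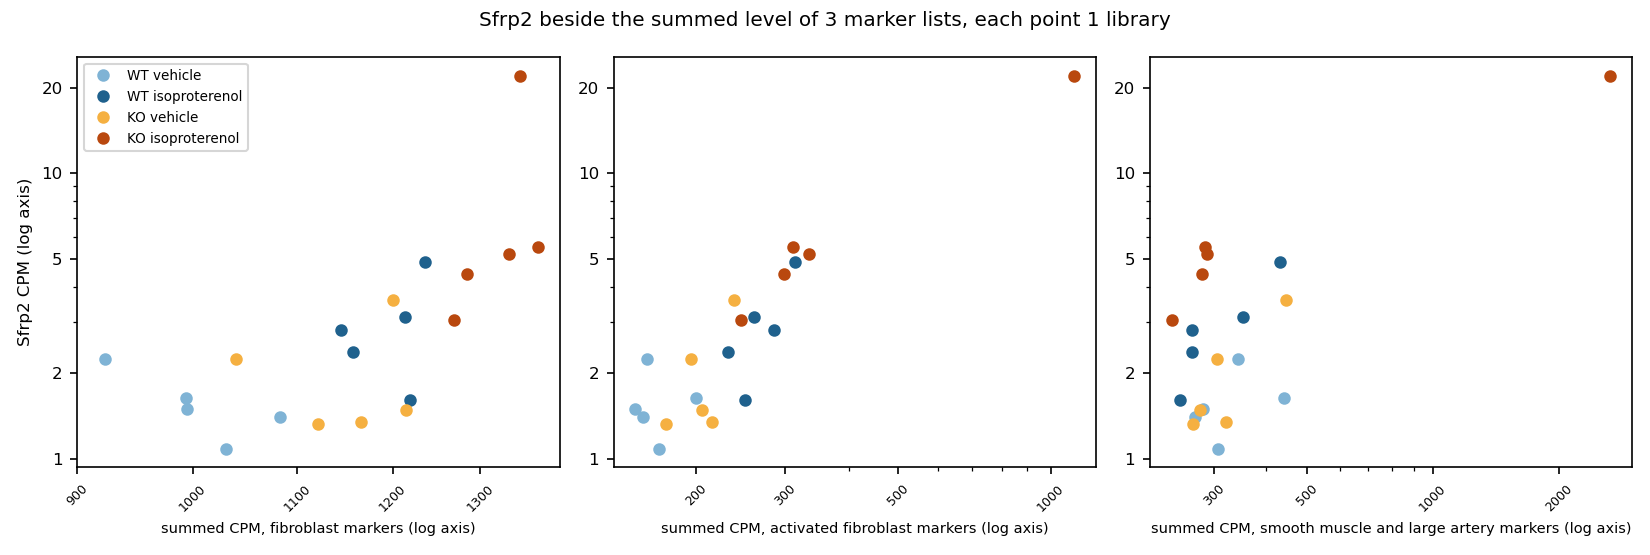
Sfrp2 CPM against the summed CPM of fibroblast, activated fibroblast, and smooth muscle and large artery markers, all on log axes, each point 1 library coloured by group. KO isoproterenol replicate 5 stands at 22.0 CPM of Sfrp2 with 1111 CPM of activated fibroblast markers and 2653 CPM of smooth muscle and large artery markers. The activated fibroblast markers include Acta2, a smooth muscle actin gene, which had the highest mean of that list in each group.

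Over the 20 libraries and 11509 named genes with a mean log2 CPM of at least 0, the genes most like Sfrp2 by rank were Fn1 (fibronectin; Spearman correlation 0.952), Tbc1d2b (0.925), Col16a1 (a collagen, 0.923), Adamts2 (a procollagen N-proteinase, 0.920) and Sulf1 (a heparan sulfate sulfatase, 0.919). Libraries share treatment, genotype and depth across all genes, so these values describe a pattern and carry no p. Fn1 kept the first rank without both libraries that stood apart (0.944). Its Pearson correlation with Sfrp2 in deviations from group means was 0.917, to which KO isoproterenol replicate 5 contributed with 249 CPM of Fn1 against 111 to 151 CPM in the rest of its group.

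Sfrp5, an antagonist known as an adipose-derived factor that opposes Wnt5a, was lower with isoproterenol in every library of both genotypes. Its CPM were 3.88, 4.19, 7.20, 4.38 and 5.17 in WT vehicle and 2.19, 2.23, 2.00, 1.41 and 1.96 in WT isoproterenol libraries. They were 5.63, 3.92, 5.05, 3.62 and 4.16 in KO vehicle and 2.0951, 2.54, 1.69, 1.59 and 0.884 in KO isoproterenol libraries. No isoproterenol library reached the lowest vehicle library of its genotype. Mean levels were 4.96 ± 1.34 and 1.96 ± 0.330 CPM in WT, and 4.47 ± 0.838 and 1.76 ± 0.617 CPM in KO (SD over 5 libraries). Described as log2 fold changes, these values came to −1.38 in WT (SE 0.207) and −1.37 in KO (SE 0.213), and −1.17 in KO without KO isoproterenol replicate 5, the lowest library. The difference between these responses was 0.02, with an interval from −0.60 to 0.64 (FDR = 0.994), and 0.23 without that library. As for Sfrp2, this difference is made of the values used to choose the gene and is no independent test. Between genotypes the value was −0.17 under vehicle (SE 0.188, FDR = 0.884) and −0.15 under isoproterenol (SE 0.233, FDR = 0.842), where it was 0.05 without KO isoproterenol replicate 5. Both genotype values use the libraries for which Sfrp5 was chosen, with the same limit.

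Adipocyte markers were measured beside Sfrp5. Their summed level was 153 to 175 CPM in WT vehicle, 154 to 211 in WT isoproterenol, 152 to 225 in KO vehicle and 162 to 189 CPM in KO isoproterenol libraries, so that the treatments overlapped in both genotypes. Fabp4 made up most of these sums, with means of 154, 171, 162 and 168 CPM in the same order. In WT vehicle the means were 0.98 CPM for Adipoq, 1.28 for Plin1 and 4.79 for Cfd. The sums therefore say little about adipocyte markers other than Fabp4. Of 6 adipocyte markers, 4 were tested and 0 passed with isoproterenol in either genotype, and Lep was at 0 counts in 11 libraries. Marker counts here stand beside 4.64% of all tested genes higher and 4.12% lower in WT, and 4.75% and 4.29% in KO. The 6 genes listed as ventricular myocyte markers were Myl2, Myl3, Myh6, Tnnt2, Actc1 and Ryr2. Their summed level was 24589 to 30808 CPM in WT vehicle and 20878 to 22900 in WT isoproterenol libraries. In WT 3 of the 6 were lower (Myl2, Myl3 and Myh6) and 0 higher. In KO the sums were 22930 to 25144 and 17186 to 22923 CPM, with 2 of 6 lower (Myl2 and Myl3) and 0 higher. Myh6 had the highest mean of the 6 in each group (14908 CPM in WT vehicle), so the sums follow Myh6 most. Ryr2 went the other way without passing, from 2668 ± 154 to 3031 ± 165 CPM in WT and from 2559 ± 87.4 to 2883 ± 299 CPM in KO (SD). Actc1 had means of 3557.5 and 3584 CPM in WT. Atrial markers had 0 of 6 changed in WT and 3 lower in KO (Myl7, Myl4 and Sln), with sums of 652 to 851 and 794 to 929 CPM in WT, and 873 to 1086 and 730 to 1015 CPM in KO. The part of any of these cells in the values of Sfrp5 was not tested. The genes most like Sfrp5 over the 20 libraries were Sf3b2 (a splicing factor subunit, Spearman correlation 0.916), Lgals4 (a galectin, 0.893), Eef1a2 (a translation elongation factor of muscle and neurons, 0.886), Wipi1 (an autophagy protein, 0.880) and Tmem150c (0.877). These values include the treatment differences for which Sfrp5 was chosen. In deviations from group means the Pearson correlations were 0.783, 0.459, 0.518, 0.368 and 0.757 in the same order. Without both libraries that stood apart Tmem150c held rank 14.

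Sfrp4, the family member with the lowest level, had 1 to 62 counts per library, so counting error is large. The CPM were 0.816, 0.280, 0.193, 0.103 and 0.450 in WT vehicle and 0.116, 0.471, 0.450, 0.164 and 0.0699 in WT isoproterenol libraries. They were 0.583, 0.490, 0.831, 0.417 and 0.210 in KO vehicle and 0.848, 1.21, 0.491, 0.568 and 2.61 in KO isoproterenol libraries. Under isoproterenol all 5 KO libraries lay above all 5 WT libraries, with the nearest pair at 0.491 and 0.471 CPM. Between genotypes the log2 fold change there was 2.17 (SE 0.537, FDR = 0.0970), and 1.56 (FDR = 0.194) without KO isoproterenol replicate 5. It passed in 1 alternative, that with no filter on low counts (FDR = 6.83e-06). With isoproterenol the value was −0.50 in WT (SE 0.638, FDR = 0.698) and 1.31 in KO (SE 0.481, FDR = 0.0938). The KO value passed in 1 of 10 alternatives and without KO isoproterenol replicate 3 (1.496, FDR = 0.0482). Without KO isoproterenol replicate 5, the highest library, the KO value fell to 0.71 (FDR = 0.381). Averaged over treatments the knockout value was 1.27 (SE 0.395, FDR = 0.145), which passed in 2 of 9 alternatives. The difference between responses was 1.81 (interval 0.14 to 3.47, FDR = 0.618), or 1.20 (FDR = 0.609) without KO isoproterenol replicate 5.

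Dkk3 is a divergent Dickkopf protein that, unlike its relatives, does not act as a plain LRP5 and LRP6 inhibitor. The WT vehicle libraries had 40.6, 31.7, 45.7, 43.3 and 39.9 CPM and the WT isoproterenol libraries 56.5, 56.9, 48.8, 51.0 and 50.2 CPM, with no overlap. KO vehicle libraries had 62.4, 45.2, 45.4, 49.3 and 43.3 CPM and KO isoproterenol libraries 57.016, 57.5, 48.7, 55.4 and 81.2 CPM, which overlapped through 1 high vehicle library. With isoproterenol Dkk3 had log2 fold changes of 0.39 in WT (SE 0.124, FDR = 0.0564) and 0.29 in KO (SE 0.123, FDR = 0.157), and neither passed. In WT it passed in 6 of 11 alternatives and without any one of KO vehicle replicate 1 and KO isoproterenol replicates 3 and 5. In KO it passed in 1 alternative and without KO vehicle replicate 1 (0.39, FDR = 0.0348), and it was 0.16 (FDR = 0.392) without KO isoproterenol replicate 5. In WT without both libraries that stood apart the value was 0.31 (FDR = 0.0185). Without WT vehicle replicate 2 alone it was also 0.31 but did not pass (FDR = 0.137). The knockout value averaged over treatments was 0.24 (SE 0.0871, FDR = 0.239), and 0.13 (FDR = 0.361) without both libraries that stood apart. It passed in 1 of 10 alternatives.

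**Figure D4:**
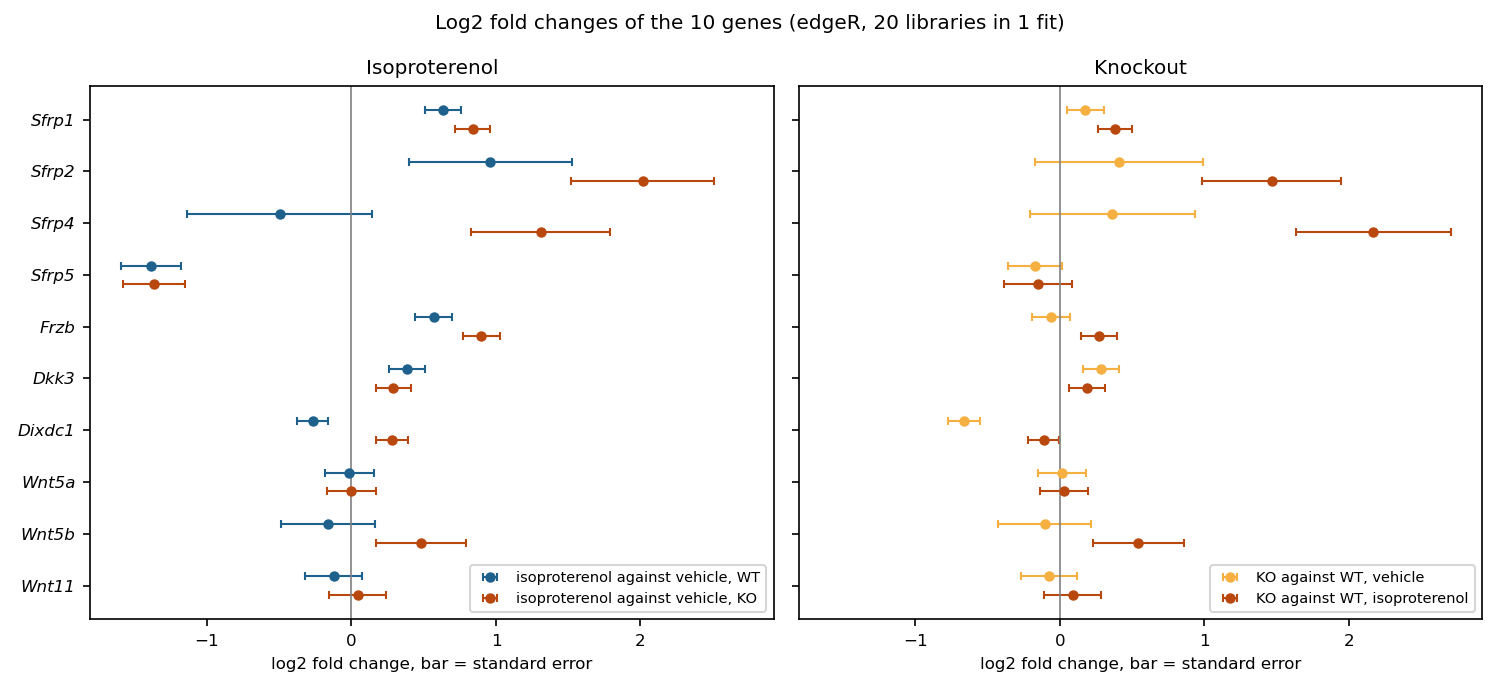
Log2 fold changes of the 10 genes with standard errors, isoproterenol against vehicle in each genotype on the left and KO against WT under each treatment on the right. Sfrp5 lies at −1.38 and −1.37 in the 2 genotypes, Sfrp1 and Frzb lie above 0 in both, and Wnt5a and Wnt11 lie near 0. Wnt5b has wide bars, at 0.48 with isoproterenol in KO and 0.54 for KO under isoproterenol.

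The Wnt ligand genes did not pass in any comparison. Wnt5a had 3.26, 4.75, 3.91, 4.79 and 3.73 CPM in WT vehicle, 3.64, 4.75, 4.80, 3.65 and 3.21 in WT isoproterenol, 3.71, 3.17, 5.05, 4.22 and 4.52 in KO vehicle and 3.84, 2.79, 3.27, 4.83 and 5.60 in KO isoproterenol libraries. The groups overlapped throughout, with means of 4.09, 4.01, 4.13 and 4.07 CPM. With isoproterenol the log2 fold change of Wnt5a was −0.01 in WT (interval −0.36 to 0.33, FDR = 0.972) and −0.00 in KO (interval −0.35 to 0.34, FDR = 0.999). Wnt11, which takes part in heart development, lay between 1.62 and 3.56 CPM over all libraries, and its group means were 2.69, 2.47, 2.54 and 2.63 CPM. Its values with isoproterenol were −0.12 in WT (interval −0.52 to 0.28, FDR = 0.770) and 0.04 in KO (interval −0.36 to 0.44, FDR = 0.933). Wnt5b, a close relative of Wnt5a, had 5 to 46 counts per library and 0.347 to 1.26 CPM. Its values were −0.16 in WT (interval −0.83 to 0.50, FDR = 0.818) and 0.48 in KO (interval −0.15 to 1.12, FDR = 0.373), so a change of 2-fold in KO lies within its interval.

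Dixdc1 encodes a protein with a DIX domain, the domain through which Dishevelled and Axin polymerise, and acts inside the cell on the canonical branch. Its CPM were 9.28, 8.46, 8.43, 8.80 and 7.91 in WT vehicle and 5.21, 6.79, 5.18, 5.01 and 4.87 in KO vehicle libraries, which did not overlap. Under isoproterenol the WT libraries had 5.78, 7.58, 6.25, 8.13 and 7.61 CPM and the KO libraries 6.78, 5.65, 6.82, 7.10 and 6.52 CPM, which overlapped. The lower level in KO was thus seen under vehicle. The log2 fold change between genotypes, a description, was −0.66 under vehicle (SE 0.108), −0.11 under isoproterenol (SE 0.109) and −0.39 averaged over treatments (SE 0.0768). With isoproterenol Dixdc1 had a value of −0.27 in WT (SE 0.107, FDR = 0.117) and 0.28 in KO (SE 0.111, FDR = 0.111), and neither passed. All 5 WT isoproterenol libraries lay below the WT vehicle mean of 8.58 CPM, and all 5 KO isoproterenol libraries above the KO vehicle mean of 5.41 CPM. The difference between the responses was 0.55 (interval 0.24 to 0.86), with an unadjusted p of 0.00121 and an adjusted p of 0.518, so it did not pass over all genes. This difference and both isoproterenol values use the vehicle libraries in which the knockout difference was seen when the gene was chosen, so they are no independent test of a response. Without KO vehicle replicate 2, the highest of its group, the isoproterenol value in KO was 0.38 (FDR = 0.0318), with the same limit. The genes most like Dixdc1 over the 20 libraries were Map7 (a microtubule-associated protein, Spearman correlation 0.853), Fhod3 (a sarcomeric formin, 0.795), Sema3b (a semaphorin, 0.794), Cdk16 (0.738) and Bbs2 (0.734). These values include the group differences for which Dixdc1 was chosen. In deviations from group means the Pearson correlations were 0.600, 0.304, 0.426, 0.143 and 0.350 in the same order. Without both libraries that stood apart Cdk16 held rank 8 and Bbs2 rank 6.

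Among themselves the antagonists varied together only in part. Sfrp1 and Sfrp2 had a Spearman correlation of 0.853 over the 20 libraries, and their deviations from group means had a Pearson correlation of 0.747, or 0.635 over the 18 libraries that did not stand apart. Frzb and Dkk3 had deviations with a correlation of 0.584, or 0.287 over 18. For Sfrp2 and Sfrp5 the correlation of deviations was −0.402 over 20 and 0.206 over 18, so its sign rested on the libraries that stood apart. These are descriptions over libraries that share depth and heart composition.

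Other secreted Wnt components were mostly too low to test. Of 16 other Wnt ligands 2 were tested (Wnt9a and Wnt9b), and Wnt3a and Wnt8a had 0 counts in all 20 libraries. Of 15 other secreted modulators 4 were tested. In both lists 0 passed with isoproterenol in either genotype or for the knockout averaged over treatments. Over all tested genes 4.64% were higher and 4.12% lower in WT, and 4.75% and 4.29% in KO. For the averaged knockout these shares were 0.383% and 0.464%. With so few genes tested, counts of 0 are near those shares and are no result about the lists. Wls, the carrier that brings Wnt proteins to the cell surface, rose with isoproterenol in KO (log2 fold change 0.26, SE 0.0742, FDR = 0.0215) and had 0.16 in WT (FDR = 0.202). Its call was lost without KO isoproterenol replicate 5 and without either of KO vehicle replicates 1 and 2 (highest FDR = 0.0847, values of 0.19 to 0.32).

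Frizzled receptor genes gave 2 of 9 tested higher with isoproterenol in KO and 0 of 9 in WT, with medians of 0.13 and 0.06 on the log2 scale against 0.0120 and 0.00394 over all tested genes, of which 4.75% were higher in KO and 4.64% in WT. Fzd1 rose from 4.79 ± 0.770 to 7.36 ± 2.40 CPM in KO (SD, n = 5, log2 fold change 0.62, FDR = 0.0123), and Fzd2 from 1.64 ± 0.421 to 2.97 ± 1.38 CPM (0.86, FDR = 0.0330). Both calls were lost without KO isoproterenol replicate 5 (Fzd1 0.39, Fzd2 0.52), and that of Fzd2 also without any one of KO vehicle replicates 2, 3 and 4. Without both libraries that stood apart, 0 of 9 passed in KO and 1 in WT. For the knockout averaged over treatments, 0.383% of all tested genes were higher and 0.464% lower. Fzd7 was the 1 gene of all pathway lists that passed there, a count near those shares and no result about the lists. It measured 5.76 ± 0.677 and 5.57 ± 0.789 CPM in WT, and 7.13 ± 1.22 and 8.42 ± 1.87 CPM in KO, under vehicle and isoproterenol (SD over 5 libraries), and the log2 fold change was 0.47 (SE 0.0976, FDR = 0.0131). The call held in all 10 alternatives run for it and without each library in turn, where it ranged from 0.40 to 0.51. For the same comparison 2 of 8 fibroblast markers were higher and 0 lower, and 0 of 6 tested activated fibroblast markers passed. These counts stand beside the same shares of all tested genes, and the part of fibroblasts in the value of Fzd7 was not tested.

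Of 10 tested co-receptors and alternative receptors, 1 fell in WT and 1 rose in KO with isoproterenol, where 4.12% of all tested genes fell in WT and 4.75% rose in KO. Counts this small are near those shares and are no result about the list. Lgr6, a receptor for R-spondins, fell in WT from 49.0 ± 3.49 to 29.2 ± 3.29 CPM (SD, n = 5, log2 fold change −0.74, SE 0.136, FDR = 0.00161), in all alternatives. In KO it had −0.35 (FDR = 0.125), and the difference between responses was 0.39 (FDR = 0.659). Ptk7, a pseudokinase co-receptor of planar polarity, rose in KO (0.55, FDR = 0.0266), and its call was lost without any one of KO vehicle replicates 1, 3 and 5 and KO isoproterenol replicates 4 and 5. Without both libraries that stood apart, 1 of the 10 was higher and 1 lower in WT, and 0 higher and 1 lower in KO.

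For the genes that act inside the cell, counts stand beside the same shares of all tested genes, 4.64% higher and 4.12% lower in WT, and 4.75% and 4.29% in KO. Of 17 tested genes of Dishevelled and the destruction complex, Dvl3 fell in WT (−0.29, FDR = 0.0496), and Axin1 (0.35, FDR = 0.0185) and Dvl2 (0.40, FDR = 0.0454) rose in KO. Ctnnb1, which encodes beta-catenin, had 0.07 in WT and −0.04 in KO (FDR = 0.669 and 0.796). Without both libraries that stood apart 0 of the 17 passed in WT and 1, Axin1, in KO. The calls of Dvl3 and Dvl2 were lost without 14 and 13 of the 20 libraries in turn. That of Axin1 was lost without any one of KO vehicle replicates 2 and 3 and KO isoproterenol replicates 2 and 5. Of 12 tested TCF/LEF factors and partners, the beta-catenin cofactors Bcl9 (−0.36, FDR = 0.0262) and Bcl9l (−0.62, FDR = 0.0316) fell in WT and 0 passed in KO. Neither passed in WT without both libraries that stood apart (FDR = 0.0680 and 0.0746). Bcl9 was lost without WT vehicle replicates 2 or 5 or WT isoproterenol replicates 3, 4 or 5, and Bcl9l without WT vehicle replicates 2 or 4 or WT isoproterenol replicates 1, 3, 4 or 5.

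Target and feedback genes of the canonical branch gave 2 of 12 tested higher and 0 lower in WT, and 5 higher and 1 lower in KO, with medians of 0.28 and 0.58 on the log2 scale. Of all tested genes 4.64% were higher and 4.12% lower in WT, and 4.75% and 4.29% in KO. Without KO isoproterenol replicate 5 the KO count was 2 higher and 1 lower, since Tnfrsf19, Dact1 (0.76, FDR = 0.0313) and Nkd2 (0.54, FDR = 0.0456) no longer passed. Dact1 and Nkd2, which both encode proteins that bind Dishevelled, also did not pass without both libraries that stood apart (FDR = 0.0778 and 0.112), where 4 were higher and 1 lower. The count of higher genes in KO was 3 without any one of KO vehicle replicates 1, 2, 3 and 4. Apcdd1, a membrane inhibitor of Wnt signalling, rose in WT from 2.34 ± 0.426 to 3.54 ± 0.535 CPM (0.57, FDR = 0.00783) and in KO from 2.93 ± 0.216 to 4.49 ± 0.413 CPM (0.61, FDR = 0.00317), in every alternative and without each library. Tnfrsf19, a receptor of the TNF family that is a Wnt target, rose by a log2 fold change of 0.96 in WT (FDR = 0.00430) and 0.78 in KO (FDR = 0.0155), where it was lost without KO isoproterenol replicate 5 (FDR = 0.0543). Dact3, an inhibitor that binds Dishevelled, rose in KO (0.55, FDR = 0.00386) and had 0.29 in WT (FDR = 0.138). Ccnd1, the cyclin D1 gene, fell in KO (−0.28, FDR = 0.0139). Axin2, the feedback gene most often used as a readout of the canonical branch, did not pass in WT (0.10, FDR = 0.804) or in KO (0.43, FDR = 0.150).

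Of 17 tested genes of the planar polarity and calcium branch, 1 rose and 4 fell in WT, and 1 rose and 1 fell in KO, beside 4.64% and 4.12% of all tested genes in WT and 4.75% and 4.29% in KO. Without WT isoproterenol replicate 4 only Nfatc2 fell in WT, since Celsr1 (a planar polarity cadherin), Camk2d (a calcium/calmodulin kinase subunit) and Rhoa no longer passed, and without WT vehicle replicate 4 only Nfatc2 and Rhoa fell. Nfatc2, a calcium-regulated transcription factor, fell in WT from 12.3 ± 2.77 to 7.03 ± 0.958 CPM (SD, n = 5, log2 fold change −0.81, FDR = 2.27e-04) in every alternative. In KO it had −0.26 (FDR = 0.237), and the difference between responses was 0.55 (FDR = 0.518). Plcb1, a phospholipase C, rose in WT (0.42, FDR = 0.0208) and KO (0.51, FDR = 0.00374), and in WT was lost without any one of WT vehicle replicates 3, 4 and 5 and WT isoproterenol replicates 1 and 3. Rhoa, a small GTPase, fell in WT (−0.21, FDR = 0.0147), a call lost without WT isoproterenol replicate 4 (FDR = 0.0515). Daam1, a formin that binds Dishevelled, fell in KO (−0.27, FDR = 0.00319) and had −0.16 in WT (FDR = 0.0916).

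Tolloid proteases and procollagen-processing genes were listed because Sfrp2 is described as acting on them. Of 8 tested, 1 rose in WT and 4 rose and 1 fell in KO, with medians of 0.12 and 0.44 on the log2 scale, beside 4.64% of all tested genes higher in WT and 4.75% higher and 4.29% lower in KO. Pcolce, an enhancer of procollagen C-proteinase, rose in WT from 19.0 ± 1.498 to 25.6 ± 1.34 CPM (0.43, FDR = 1.47e-04) and in KO from 20.8 ± 0.686 to 27.7 ± 2.71 CPM (0.41, FDR = 2.24e-04), in every alternative. Bmp1, the main procollagen C-proteinase, rose in KO (0.50, FDR = 0.00896) and had 0.19 in WT (FDR = 0.348). Adamts2 rose in KO (1.23, FDR = 0.0106), with 0.78 (FDR = 0.00771) without both libraries that stood apart, and had 0.63 in WT (FDR = 0.194). Tll2, a tolloid-like protease at under 1 CPM, fell in KO (−1.88, SE 0.434, FDR = 0.00537) and had −0.97 in WT (FDR = 0.154). Pcolce2 rose in KO from 8.82 ± 0.937 to 14.7 ± 7.53 CPM (0.76, FDR = 0.0384), a call lost without any one of KO vehicle replicates 1 to 5. It was 0.38 (FDR = 0.0120) without both libraries that stood apart. Without both libraries that stood apart, or without KO isoproterenol replicate 5 alone, 3 of the 8 rose in WT.

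**Figure D5:**
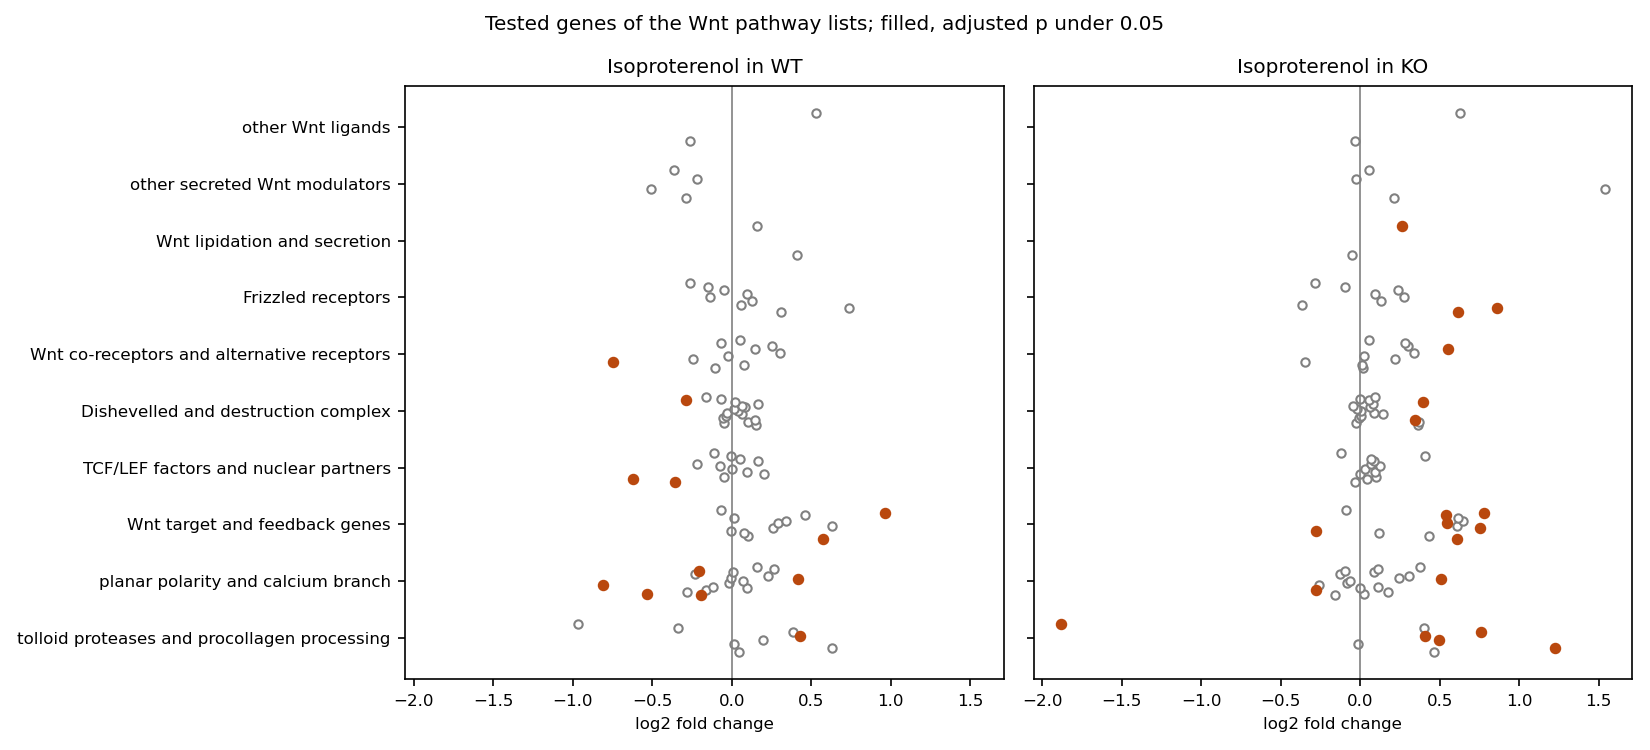
Log2 fold change with isoproterenol in WT (left) and KO (right) of every tested gene of 10 Wnt pathway lists, each point 1 gene, filled where the edgeR adjusted p was under 0.05. In KO filled points make up 6 of 12 target and feedback genes and 5 of 8 procollagen-processing genes, against 4.75% higher and 4.29% lower over all tested genes. Without KO isoproterenol replicate 5 the 6 become 3. The call of Pcolce2, 1 of the 5, was lost without any one of KO vehicle replicates 1 to 5.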

How the data were processed

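The authors deposited 1 table of raw counts per gene for 20 heart libraries, made with Illumina stranded total RNA chemistry per the labels' protocols. The submitters' processing notes name HISAT2 2.1.0, featureCounts 1.6.3, R 3.6.0, limma 3.40.6 and GRCm38. For the annotation release and strand setting of the counting, the sources used here gave nothing. Of 55335 IDs, 55154 matched GENCODE vM21, which gave symbols and exon lengths, and 0 columns lacked a sample.

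Genes kept by filterByExpr (14878) entered 1 edgeR 4.0.16 quasi-likelihood fit in R 4.3.3, with TMM scaling, robust estimation, a mean per group over all 20 libraries and 16 residual degrees of freedom. The threshold was an FDR (Benjamini-Hochberg, over all tested genes) under 0.05. CPM and RPKM were computed from the counts with TMM library sizes, which include mitochondrial counts. Log2 CPM used a prior count of 2. The script was tested on simulated data. The genes and lists were chosen with earlier results of these data known. Named were the 10 genes, up to 4 passing members per pathway list by smallest p, and the 5 genes most like Sfrp2, Sfrp5 and Dixdc1. Other list members named beside these (Ctnnb1, Axin2, Dact1, Nkd2, Celsr1, Pcolce2, Wnt9a, Wnt9b, Wnt3a, Wnt8a and the marker genes) were chosen after their values were seen.

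Alternatives were upper-quartile and RLE scaling, DESeq2 1.42.0, limma-voom (limma 3.58.1) without and with quality weights, no filter, a filter of 1 CPM in 5 libraries, no mitochondrial genes, 2 surrogate variables (sva 3.50.0), a fit of the compared groups alone, and leaving out 1 library or both that stood apart. Counts per list without both, and without each library in turn, were added after the data were seen. Promoter sequences are from RefSeq (GRCm38.p6), where 6 of the 10 genes matched. Python 3.11.15 with matplotlib 3.10.9 drew the figures.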

Additional observations from a re-analysis of the deposited data

Results flagged for a closer look

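Of 40 groups of 5 libraries (10 genes in 4 groups), 3 held a library far from the others by Dixon's ratio, where chance flags about 1 in 20. Sfrp1 was high in WT vehicle replicate 2, at 3.62 log2 CPM against 3.38 for the next library (12.2 and 10.3 CPM). This is the library with high Gm42418, and without it and KO isoproterenol replicate 5 the WT value of Sfrp1 with isoproterenol was 0.68 (adjusted p = 2.43e-04). Sfrp5 was low in WT isoproterenol replicate 4, at 0.58 log2 CPM against 1.03 (1.41 and 1.96 CPM). Dixdc1 was high in KO vehicle replicate 2, at 2.78 log2 CPM against 2.41 (6.79 and 5.21 CPM), and without it the knockout value under vehicle was −0.76 instead of −0.66.

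Dixdc1 also drew attention because all 5 WT libraries lay lower and all 5 KO libraries higher with isoproterenol than the vehicle mean of their genotype. The difference between the responses was 0.55 on the log2 scale, with an edgeR adjusted p of 0.518 over all genes. Both the flag and this difference use the vehicle libraries in which the knockout difference was seen when Dixdc1 was chosen. They are no independent test of a response.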

How the results depend on the processing

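No paired analysis was possible because replicates were numbered in accession order, which links no library to one of another group. The isoproterenol counts stayed within 1.5 times the reported 1304 (WT) and 1344 (KO) in all 11 alternatives, and leaving out 1 library gave 882 to 1686 and 1001 to 1442. For the knockout under vehicle (19 genes) the count was 61 with DESeq2, 43 with quality weights, 117 with no filter, 48 with 2 surrogate variables, 38 without both libraries that stood apart, and 10 to 35 without 1 library. Under isoproterenol (27) the same settings gave 128, 81, 250, 45 and 50, and 10 to 55. For the averaged knockout (126) the count was 226 with DESeq2, 350 with no filter, 262 with 2 surrogate variables, and 74 to 143 without 1 library. For the difference between responses (0) it was 5 with DESeq2, 34 with no filter, 4 without both, and 0 to 1 without 1 library. The cause was not tested.

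No value that reversed had passed a test. Wnt5a in WT was 0.0139 with quality weights and 0.0381 without both libraries, and −0.0846 to 0.0515 without 1 library. In KO it was 0.00147 without mitochondrial genes, and −0.15 to 0.10 without 1 library. Sfrp5 between genotypes under isoproterenol was 0.0118 with quality weights, 0.0485 without both, and −0.31 to 0.0473 without 1 library. The difference between the Sfrp5 responses was −0.00185 with limma-voom and −0.16 to 0.23 without 1 library. Leaving out 1 library also reversed Sfrp5 between genotypes under vehicle (−0.27 to 0.0120) and, with isoproterenol, Sfrp4 in WT (−0.84 to 0.00761), Wnt11 in KO (−0.0636 to 0.15) and Wnt5b in WT (−0.62 to 0.0569). Sfrp4 and Wnt5b were limited by depth, with as few as 1 and 5 counts per library. The stricter filter removed Sfrp4 and Wnt5b, and where DESeq2 gave no adjusted p no value was used.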
